A study of Drosophila melanogaster with 3 samples.

Results

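Aminoacyl-tRNA synthetases join each amino acid to its tRNA and so supply the ribosome with charged tRNA. Animal cells run this reaction in the cytoplasm and, with a largely separate set of nuclear-encoded enzymes, in the mitochondrion. The genes are regarded as housekeeping genes, transcribed in nearly every cell. The members described here were the protein-coding genes of the Ensembl release 115 annotation whose symbol is an amino acid code, or GluPro for the fused glutamate and proline enzyme, followed by RS. This rule gave 33 of 13945 protein-coding genes, 18 for cytoplasmic enzymes and 15 for mitochondrial enzymes, the latter marked by the suffix -m. The rule uses symbols and no measured value, though it was set with earlier results of these data known. The cytoplasmic phenylalanine enzyme is made of subunits whose genes, alpha-PheRS and beta-PheRS, fall outside the rule by symbol.

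Binding was measured by chromatin immunoprecipitation and sequencing (ChIP-seq) of caup, an Iroquois homeodomain protein known for patterning the notum, wing and eye. The material was whole Drosophila melanogaster embryos aged 0 to 24 h, males and females pooled. All came from 1 transgenic line with GFP at the C terminus of caup, and an anti-GFP antibody was used. The 3 biological replicates form 1 group, so the design holds no contrast between conditions and no test was made. The cells in which the fusion protein is made are not given in the labels, and a whole embryo gives an average over all of its cells. The authors deposited 1 list of 30000 regions for each replicate, 1 such list from the pooled alignments, and an optimal set of 6056 peaks. The optimal set is named for a threshold on the reproducibility of ranks, and it equals the 6056 pooled regions of highest signal. A single peak of the set can therefore rank low in a replicate. Each region has a signal value, the authors' enrichment statistic on a scale that is not given, which is used here to rank regions within 1 list. Read counts are not part of the lists, so depth is unknown.

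Of the 33 synthetase genes, 10 had the summit of an optimal peak within 1 kb of a transcription start site (TSS), called a promoter summit here. That share, 30.3%, lay close to the 27.6% of all protein-coding genes. By class, 8 of 18 cytoplasmic genes (44.4%) and 2 of 15 mitochondrial genes (13.3%) had one. The class rests on the symbol alone. ThrRS and HisRS, among the 8, are 2 of the 5 cytoplasmic genes with no mitochondrial counterpart under the rule, so whether they also serve the mitochondrion is not settled by their names. Without those 5 genes the cytoplasmic count was 6 of 13 (46.2%), a comparison added after seeing the data. The cytoplasmic genes were SerRS, IleRS, ThrRS, GluProRS, AsnRS, ValRS, AspRS and HisRS, and the mitochondrial genes were LeuRS-m and ArgRS-m. All 10 share their upstream region with a protein-coding neighbour that is transcribed the other way, within 1 kb. Such a divergent neighbour is found at 69.7% of all 33 members and at 59% of protein-coding genes with a promoter summit. None of the 10 synthetase genes without such a neighbour had a promoter summit (0 of 10), against 18.8% of protein-coding genes of that kind and 40.6% of those with a neighbour. That 0 holds for the rule used here and not for looser ones, as set out below.

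The DNA under the summits of 8 of these 10 genes is printed to show what the bound windows have in common and how they differ. Each is the 201 bases centred on the summit, on the strand of the synthetase gene, 5′ to 3′, from the NCBI genome of Drosophila assembly release 6, the build the files call dm6. Capitals mark matches on either strand to 4 of the short motifs described later: ACANNTGT, the palindrome known for Iroquois proteins; CAGCTG, an E-box form read by basic helix-loop-helix factors; ACACTG; and TATAAA, the TATA box core, which appears as TTTATA when it lies on the other strand. The first 4 are those of highest signal. LeuRS-m is chr3L:4824822-4825022, SerRS chr2L:3037283-3037483 on the minus strand, IleRS chr3L:22288405-22288605 and ThrRS chr2L:12103470-12103670.
LeuRS-m: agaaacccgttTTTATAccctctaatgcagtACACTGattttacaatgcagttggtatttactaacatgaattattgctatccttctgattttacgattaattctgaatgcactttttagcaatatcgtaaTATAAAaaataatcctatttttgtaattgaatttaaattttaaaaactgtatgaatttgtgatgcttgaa
SerRS: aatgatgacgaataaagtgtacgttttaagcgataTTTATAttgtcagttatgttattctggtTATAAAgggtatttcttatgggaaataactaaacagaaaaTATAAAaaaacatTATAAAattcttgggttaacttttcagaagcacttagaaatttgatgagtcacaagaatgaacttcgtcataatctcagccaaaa
IleRS: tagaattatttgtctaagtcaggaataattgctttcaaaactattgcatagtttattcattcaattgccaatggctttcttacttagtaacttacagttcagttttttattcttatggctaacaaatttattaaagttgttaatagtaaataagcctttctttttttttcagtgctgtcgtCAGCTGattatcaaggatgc
ThrRS: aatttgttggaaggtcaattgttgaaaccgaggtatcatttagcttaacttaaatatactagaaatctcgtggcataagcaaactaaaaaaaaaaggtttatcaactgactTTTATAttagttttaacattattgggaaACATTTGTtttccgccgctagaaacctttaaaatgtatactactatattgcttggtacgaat

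These windows are poor in GC, with contents of 26.4% at LeuRS-m, 27.9% at SerRS, 28.9% at IleRS and 29.9% at ThrRS. The SerRS window contains the TSS, at base 81, and 4 matches to TATAAA. The ThrRS window holds a match to the Iroquois palindrome 39 to 46 bases downstream of the summit, and the IleRS window a CAGCTG 81 to 86 bases downstream.

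The other 4 are chr3R:23958442-23958642 on the minus strand for GluProRS, chr2L:19131914-19132114 on the minus strand for AsnRS, chr3R:7886818-7887018 for ArgRS-m and chrX:18515337-18515537 for HisRS. They come next in signal once ValRS and AspRS, whose sequences are not shown, are set aside, and they show the spread in base composition.
GluProRS: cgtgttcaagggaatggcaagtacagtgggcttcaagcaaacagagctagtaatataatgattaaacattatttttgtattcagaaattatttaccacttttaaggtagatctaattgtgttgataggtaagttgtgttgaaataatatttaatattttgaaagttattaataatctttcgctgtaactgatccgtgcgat
AsnRS: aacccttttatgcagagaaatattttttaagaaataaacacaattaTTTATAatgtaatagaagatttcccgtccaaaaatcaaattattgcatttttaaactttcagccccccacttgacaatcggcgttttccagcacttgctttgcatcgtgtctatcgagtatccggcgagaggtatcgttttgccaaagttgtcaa
ArgRS-m: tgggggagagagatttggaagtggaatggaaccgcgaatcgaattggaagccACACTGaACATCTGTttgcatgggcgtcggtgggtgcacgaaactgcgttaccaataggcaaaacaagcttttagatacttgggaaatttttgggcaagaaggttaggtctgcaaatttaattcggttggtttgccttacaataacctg
HisRS: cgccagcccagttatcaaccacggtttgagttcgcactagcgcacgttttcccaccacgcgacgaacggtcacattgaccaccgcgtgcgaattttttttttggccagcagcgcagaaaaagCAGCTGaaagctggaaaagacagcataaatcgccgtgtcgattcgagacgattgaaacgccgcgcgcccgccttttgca

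The GluProRS window, with a GC content of 30.3%, held none of the 8 motifs sought. The ArgRS-m window had a GC content of 45.3%. Its match to ACACTG, 48 to 43 bases upstream of the summit, is followed after 1 base by the Iroquois palindrome at 41 to 34 bases upstream. The HisRS window had the highest GC content of those printed, 54.2%. It contains the TSS at base 92, and the motif CAGCTG lies 31 to 36 bases downstream of that TSS. Over all 10 summits the median GC content of the window was 32.1%, against 37.8% over all 6056 optimal summits. The 6056 are not limited to summits within 1 kb of a TSS, and the median over those alone was not taken.

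Among the cytoplasmic genes SerRS, for the serine enzyme, carried the strongest peak. It lies on 2L at 3035493 to 3037403 on the minus strand, and the summit was 20 bp downstream of its TSS, in the 5′ UTR. The signal value was 907.5, rank 509 of the optimal peaks and percentile 91.6. The region holding this summit ranked 686, 465 and 483 in replicates 1, 2 and 3, with signal values of 259.7, 247.5 and 392.9. All 3 replicates thus placed it among their highest 1000 regions. The gene CG17260 has a TSS on the other strand 8 bp upstream, and the summit was 28 bp from that TSS. The annotated span of CG17260 also covers the summit, as an intron. A transcript from the TSS named here runs away from the summit, so that span includes another start.

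IleRS, for the isoleucine enzyme, lies on 3L at 22288665 to 22292810 on the plus strand. Its summit was 160 bp upstream of the TSS, in the 470 bp between IleRS and Hem, which encodes a component of the SCAR/WAVE actin regulator. The signal value was 799.1 at rank 652, and the replicate ranks were 1273, 737 and 454. The position was the most repeatable of the 10, at 158, 165 and 160 bp upstream in replicates 1, 2 and 3, and replicate 1 ranked the region lowest.

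ThrRS, for the threonine enzyme, lies on 2L at 12103751 to 12107170 on the plus strand. Its summit was 181 bp upstream, between ThrRS and Patsas, a gene for a palmitoyltransferase-like protein that starts 466 bp away. The signal value was 717.7 at rank 796, with replicate ranks of 1035, 619 and 881. The replicate summits spread over 64 bp, all inside the gap between the genes.

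GluProRS, which encodes the fused enzyme for glutamate and proline, lies on 3R at 23952136 to 23958391 on the minus strand. Its summit was 151 bp upstream of the TSS with a signal value of 589.1 and rank 1155, and the replicate ranks were 1935, 869 and 1115. The summit was nearer to AP-1sigma, a clathrin adaptor subunit gene, at 109 bp. The TSSs of this pair are 260 bp apart, and the replicate summits, at 203, 142 and 102 bp upstream of GluProRS, stayed between them.

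AsnRS, for the asparagine enzyme, lies on 2L at 19129469 to 19131954 on the minus strand. The summit was 60 bp upstream, with a signal value of 403.9 at rank 2194 and replicate ranks of 1545, 2472 and 3379. Here replicate 1 gave the highest rank, the reverse of IleRS, ThrRS and GluProRS. The partner is DCTN6-p27, a dynactin subunit gene, 369 bp from AsnRS.

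The other 3 cytoplasmic genes lay lower in the optimal set or nearer to another gene. ValRS, for the valine enzyme, lies on 2R at 13198850 to 13202709, and its summit had a signal value of 317.3, rank 3263 and replicate ranks of 4095, 2497 and 3921. That summit was 498 bp upstream of ValRS but 15 bp from the TSS of Kdm4B, a histone demethylase gene, so its position was that of the Kdm4B start.

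AspRS, for the aspartate enzyme, lies on 2R at 12877004 to 12883168. Its optimal summit had a signal value of 235.8 at rank 5094 and lay 452 bp upstream of AspRS. The partner is Lfg, a gene of the Bax inhibitor family, with a TSS 38 bp upstream of AspRS. The summit lay beyond that TSS in an Lfg intron, 159 bp from another TSS of Lfg. The regions holding it ranked 12202, 8857 and 2929, so replicate 3 alone had it among its 6056 highest regions. Each replicate did have a stronger region with its own summit within 1 kb of AspRS, ranked 4550, 3318 and 2297, at 356, 252 and 346 bp upstream. The replicates thus placed a region at the pair in each case, at positions that differ by more than those of IleRS.

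HisRS, for the histidine enzyme, lies on X at 18515428 to 18520445. Its summit was 9 bp downstream of the TSS, with the lowest signal value of the 10, 225.8 at rank 5427. A transcript of Bx, a gene for a LIM-only transcriptional cofactor, starts at the same base on the same strand, so the distances to HisRS and Bx were equal. Replicate ranks were 3742, 15316 and 5764. Replicate 2 stood apart in both rank and position, with a summit 204 bp downstream of the TSS against 13 and 8 bp in the other two. The divergent partner, CG6470, starts 561 bp away.

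Among the mitochondrial genes LeuRS-m, for the leucine enzyme, had the highest signal value of all 33 members. It lies on 3L at 4825853 to 4829038, and the peak had a value of 1144 at rank 332, percentile 94.5, with replicate ranks of 368, 357 and 287. All 3 replicates gave it nearly the same standing. The summit was far from the gene, however, 931 bp upstream of LeuRS-m. It was nearer to its divergent partner Dhc64C, the cytoplasmic dynein heavy chain gene, at 765 bp from that TSS, in a Dhc64C intron. In replicate 1 the region holding it had its own summit 1008 bp from LeuRS-m, and the strongest region within 1 kb there was another one, ranked 529, at 806 bp.

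ArgRS-m, for the arginine enzyme, lies on 3R at 7887045 to 7890150 on the plus strand. Its summit was 127 bp upstream with a signal value of 395 at rank 2280, between ArgRS-m and CG17816, whose TSSs are 312 bp apart. The replicate ranks were 4205, 1503 and 2176, and the summits were 67, 105 and 106 bp upstream. Of the 2 mitochondrial genes, ArgRS-m was the one with the summit nearest to its own TSS.

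**Figure D1:**
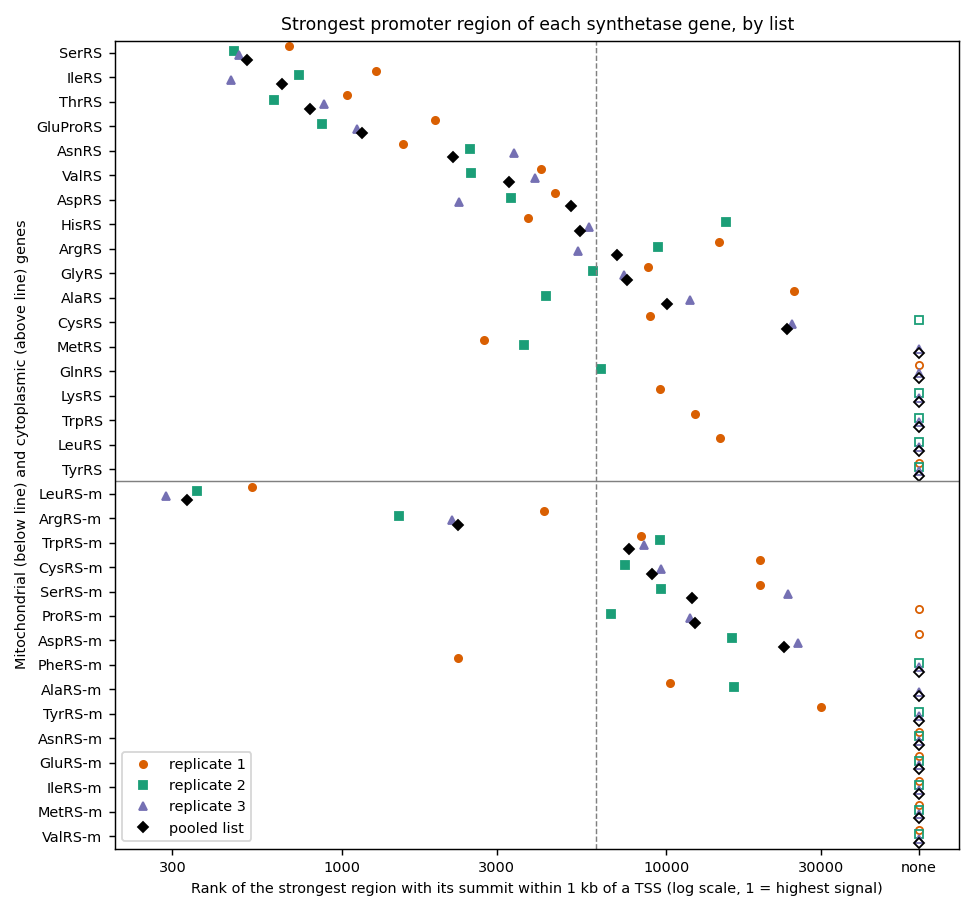
Rank, on a log axis, of the strongest region whose summit lies within 1 kb of a TSS, for each of the 33 synthetase genes in the 3 replicate lists and the pooled list. The dashed line stands at rank 6056, the number of optimal peaks, and open symbols at the right mark lists with no such region. The symbols of SerRS, IleRS, ThrRS, GluProRS and LeuRS-m lie together at the left, and MetRS and PheRS-m have symbols left of the line in some replicates with none in the pooled list.

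Across the 10 genes the percentile of the summit among optimal peaks ran from 10.4 to 94.5 with a median of 72.4, against a median of 61.6 over all protein-coding genes with a promoter summit. For 8 of the 10 the optimal summit lay in the top 6056 regions of all 3 replicates, and that rule gave 6 cytoplasmic and 2 mitochondrial genes, 24.2% of the members, against 19.9% of protein-coding genes. HisRS had it in 2 top lists and AspRS in 1. Taking instead each replicate's own summits, 9 of the 10 had a region of all 3 top lists within 1 kb, HisRS being the exception. Of all members, 12 (36.4%) had a top region of replicate 1 within 1 kb, 12 (36.4%) one of replicate 2 and 11 (33.3%) one of replicate 3. The shares of protein-coding genes were 29.4%, 28.1% and 26.3%. In each replicate the cytoplasmic class had the higher count, with 9, 10 and 9 of 18 against 3, 2 and 2 of 15.

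The difference between the classes can be set out by amino acid, since 14 amino acids have a member in both. For 7 of them, serine, isoleucine, glutamate, proline, asparagine, valine and aspartate, the cytoplasmic gene had a promoter summit and the mitochondrial gene had none. GluProRS counts for 2 of these. For leucine and arginine it was the reverse. For alanine, cysteine, methionine, tryptophan and tyrosine neither gene had one, and there was no amino acid with a promoter summit at both. The share of single protein-coding genes with one was 27.6%, and no share over other pairs of genes was taken. With 14 amino acids, the lack of a shared case is a description and does not show that the classes exclude each other. Glutamine, glycine, histidine, lysine and threonine have a cytoplasmic member only under this rule. In people, the glycine and lysine genes are known to give both the cytoplasmic and the mitochondrial enzyme from 1 gene.

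The members also differ in how their promoters are arranged, a grouping that was chosen after the values were seen. A divergent partner was defined as another gene on the opposite strand with a TSS at most 1 kb upstream. Of the cytoplasmic genes 16 of 18 (88.9%) have one and of the mitochondrial genes 7 of 15 (46.7%), against 40.1% of all protein-coding genes. With a partner, 8 of 16 cytoplasmic genes (50%) and 2 of 7 mitochondrial genes (28.6%) had a promoter summit, together 10 of 23 (43.5%). The background for such genes was the 40.6% given above. Without a partner the count was 0 of 2 for CysRS and AlaRS and 0 of 8 for MetRS-m, SerRS-m, IleRS-m, TrpRS-m, GluRS-m, ValRS-m, PheRS-m and AspRS-m, and the background was 18.8%. These counts of 0 depend on the cutoff. AlaRS was counted when any base of the peak could lie within 1 kb. With the whole pooled list AlaRS, CysRS, AspRS-m, SerRS-m and TrpRS-m were counted, and the background by partner was not taken for that list. The higher count of cytoplasmic genes thus goes with a higher share of divergent promoters, and their parts in it were not tested.

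**Figure D2:**
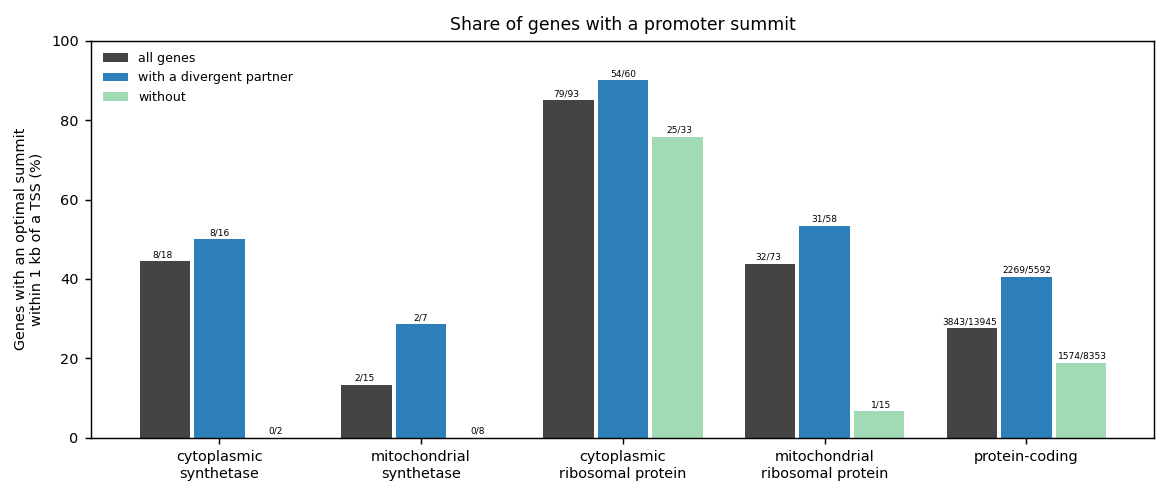
Percent of genes with an optimal summit within 1 kb of a TSS, for all genes of a set (dark), those with a divergent partner (blue) and those without (green), with counts above the bars. Among synthetase genes the bars without a partner stand at 0 of 2 and 0 of 8, and with a partner at 8 of 16 and 2 of 7, against 2269 of 5592 protein-coding genes.

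Ribosomal protein genes, which also serve translation, give a comparison. The genes of the cytoplasmic ribosome had promoter summits with and without a partner, at 54 of 60 (90%) and 25 of 33 (75.8%). Those of the mitochondrial ribosome had 31 of 58 (53.4%) with a partner and 1 of 15 (6.67%) without. The synthetase genes had 10 of 23 (43.5%) with a partner, near the 40.6% of protein-coding genes. Without a partner they had 0 of 10 at this cutoff, against 18.8%. Ribosomal protein genes were not counted at other cutoffs.

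With so many divergent pairs, a summit cannot always be given to 1 gene. All 10 promoter summits at synthetase genes had the TSS of another gene within 1 kb, compared with 62.8% of protein-coding genes with a promoter summit. In 6 of the 10 the summit lay between the TSSs of the pair, and in 8 it was upstream of the nearest synthetase TSS. Neither count was taken over all protein-coding genes. The distance to the synthetase TSS ran from 9 to 931 bp with a median of 155.5 bp, and the median over protein-coding genes was 149 bp. For GluProRS, ValRS, AspRS and LeuRS-m another gene's TSS was the nearer one. Giving each summit to its nearest TSS left 6 of 33 members (18.2%), 5 cytoplasmic and 1 mitochondrial, against 20.4% of protein-coding genes. Ties were counted in both shares, as for HisRS, whose TSS is as far from the summit as that of Bx. Binding at the gene and binding at its partner cannot be told apart where the summit is close to a short gap, as at SerRS with 8 bp. AspRS and Lfg start 38 bp apart, but the optimal summit there was nearer to another TSS of Lfg.

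**Figure D3:**
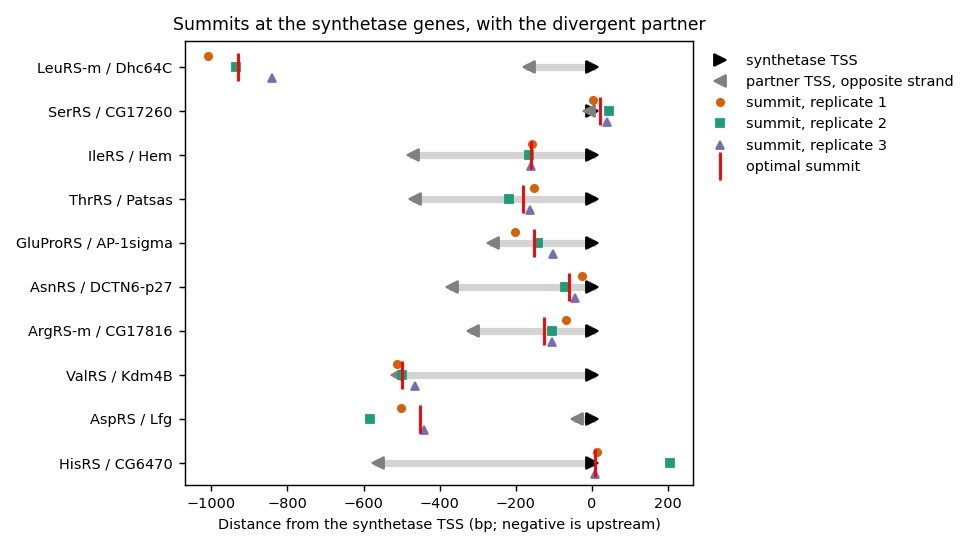
Position of each summit relative to the synthetase TSS (0, black arrow) in bp for the 10 genes, ordered by signal value, with the divergent partner's TSS as a grey arrow and the gap between them as a grey bar. Red strokes are optimal summits and coloured symbols are the replicates' summits. The strokes of IleRS, ThrRS, GluProRS, AsnRS and ArgRS-m lie inside the gap, that of ValRS at the partner's TSS, and those of LeuRS-m and AspRS beyond it.

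Of the 23 members without a promoter summit, some lay just outside the rules. AlaRS, for the alanine enzyme, had an optimal summit with a signal value of 545.6 at 1071 bp upstream, beyond the 1 kb limit, and a weaker pooled region of rank 10006 nearer by. ArgRS, for arginine, had a pooled region of rank 7042 (signal value 184.6), with replicate ranks of 14477, 9402 and 5326. GlyRS, for glycine, had one of rank 7546 (175.4), with replicate ranks of 8799, 5951 and 7426. TrpRS-m, for tryptophan, had one of rank 7666 (173) with its summit 1 bp from the TSS and replicate ranks of 8374, 9575 and 8512. The lowest signal value in the optimal set was 208.6, so these 3 regions were just below it, and TrpRS-m was the most even of them across replicates.

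CysRS-m, SerRS-m, ProRS-m, AspRS-m and CysRS had pooled regions at ranks from 9016 to 23503. In all, 9 of the 23 had a pooled region of any rank within 1 kb and 14 had none. Over all 33 members, 19 (57.6%) had a pooled region, close to the 53.8% of protein-coding genes. Of those 14, 8 had a region in at least 1 replicate: MetRS, GlnRS, LeuRS, LysRS, TrpRS, PheRS-m, AlaRS-m and TyrRS-m. The other 6, TyrRS, AsnRS-m, GluRS-m, IleRS-m, MetRS-m and ValRS-m, had no region in any list, and 5 of them are mitochondrial. The share of protein-coding genes with no region in any list was not counted, so this is a description of single genes.

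Some of these replicate regions were high in their own list. MetRS, for the cytoplasmic methionine enzyme, had a region of rank 2738 in replicate 1 and 3647 in replicate 2, with summits 151 and 152 bp upstream, but none in replicate 3 or in the pooled list. PheRS-m, for mitochondrial phenylalanine, had one of rank 2279 in replicate 1 alone. Such regions were few: 122 of the top 6056 regions of replicate 1 (2.01%), 137 of replicate 2 (2.26%) and 47 of replicate 3 (0.776%) had no pooled summit within 1 kb. Counting regions of any rank, 11 of 18 cytoplasmic and 5 of 15 mitochondrial genes had one within 1 kb in all 3 replicates, against 44.3% of protein-coding genes. With weak regions counted, the cytoplasmic class again had the higher share.

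Genes with a promoter summit were also the longer ones at the median. The 10 synthetase genes with a promoter summit had a median length of 3640 bp and the other 23 one of 2545 bp. Over all protein-coding genes the medians were 3587 and 1860 bp.

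Of 15 other genes linked to tRNA charging, 2 (13.3%) had a promoter summit, against 27.6% of protein-coding genes. The 15 include elongation factors, scaffold proteins and the regulators Gcn2 and crc, so this is not a share of charging enzymes. GatA, a subunit of the enzyme that makes mitochondrial Gln-tRNA by transamidation, had a summit with a signal value of 546.7 and replicate ranks of 830, 1895 and 1637. It was 101 bp upstream of GatA and 27 bp from the TSS of P5cr on the other strand, in the P5cr 5′ UTR. It thus lay beyond the partner's TSS, as at AspRS and LeuRS-m. eEF1alpha1, the elongation factor that carries charged tRNA to the ribosome, had one with a signal value of 1078, 70 bp from a TSS. The other 13 had none. They were alpha-PheRS, beta-PheRS, Slimp (a relative of seryl-tRNA synthetase in fly mitochondria), AIMP1, AIMP2 and AIMP3 (scaffold proteins of the synthetase complex), GatB, GatC, eEF1alpha2, mEFTu1, mEFTu2, Gcn2 (the kinase that senses uncharged tRNA) and crc (the fly ATF4). The optimal summit nearest to crc was 1428 bp upstream with a signal value of 376.2. beta-PheRS had a region of rank 2155 in replicate 1 alone.

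Motifs were sought on both strands within 100 bp of the summits and in promoters from 250 bases before to 50 after the start. At the 10 summits the Iroquois palindrome ACANNTGT was found in 2, ThrRS and ArgRS-m, against 11.5% of all optimal summits. CAGCTG was found at 3 (AspRS, HisRS and IleRS, against 10.7%), TATAAA at 4 (AsnRS, LeuRS-m, SerRS and ThrRS, against 30.5%), ACACTG at 2 (LeuRS-m and ArgRS-m, against 18.3%) and GGTCACAC at 1 (ValRS, against 2.81%). TATCGATA, the DNA replication-related element of many housekeeping promoters, was at 0 of 10 and 3.62% of all summits. CACGTG, the E-box of Myc and Max, was at 0 and 2.58%, and TGATGNAA, the form bound by ATF4, at 0 and 2.53%. With 10 windows these counts are descriptions, and a match is not evidence of a bound site.

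In the promoters of all 33 members the share of 7 motifs lay within 10 percentage points of that over all promoters, and CAGCTG lay further away. It was in 16 of 33 synthetase promoters (48.5%), 9 cytoplasmic and 7 mitochondrial, against 17.7% of 13945. It was in the promoters of 6 of the 10 genes with a promoter summit (60%) and 10 of the 23 without (43.5%). The shares of all protein-coding promoters by promoter summit, or by divergent partner, were not taken. Of the other motifs, ACANNTGT was in 6 promoters (18.2%, against 13.4%), of which 5 were mitochondrial. TATCGATA was in 5 (15.2%, against 9.36%), GGTCACAC in 4 (12.1%, against 7.7%) and TATAAA in 18 (54.5%, against 45.8%). ACACTG was in 9 (27.3%, against 18.9%), CACGTG in 2 (6.06%, against 4.2%), and TGATGNAA in 1, CysRS (3.03%, against 4.07%). Divergent pairs share promoter DNA, so a match in a synthetase window can belong to the partner.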

How the data were processed

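Per the labels, anti-GFP immunoprecipitates of sonicated chromatin (fragments of 200 to 800 bp) were sequenced from 3 biological replicates of 1 group. The authors deposited region lists on dm6 and dm3; the dm6 lists were used. The control they called regions against, per the deposited notes, is not analysed here. Which aligner, peak caller and versions were used, and the threshold on the irreproducible discovery rate behind the optimal set, is not given in the sources used here. The signal value of each region and its summit offset were used as deposited; the optimal set equals the 6056 pooled regions of highest signal. Summits were set against TSSs of Ensembl release 115 on 6 chromosome arms with Python 3.11.15, and the assignment was tested on simulated data. Every member is named, and sequences were printed for the members of highest signal, up to 8, leaving out those on 2R (ValRS and AspRS). Members, lists and motifs were chosen with earlier results of these data known. With 1 group there is no test. In all, 12 alternatives were tried (distance, peak set, nearest TSS, overlap, TSS choice, replicates, members), and 1 more was added after seeing the data. Depth is unknown, so no count interval is given.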

Additional observations from a re-analysis of the deposited data

How the results depend on the processing

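Percents in brackets are shares of all protein-coding genes in the same setting, not of members. The count of 10 members with a promoter summit (27.6%) was 9 within 500 bp (24.1%). It was 11 when any base of the peak counted (28.6%) and 10 with the most upstream TSS of each gene (25.6%). Among the 3028 peaks of highest signal it was 7 (17%), and in the top lists of all 3 replicates 8 (19.9%). It rose to 20 within 5 kb (48.6%) and to 19 with the whole pooled list (53.8%), and was 6 when summits went to the nearest TSS (20.4%). The 8 cytoplasmic genes became 12 within 5 kb, 12 with the whole pooled list, 5 with the 3028 strongest peaks and 5 with the nearest TSS. The 2 mitochondrial genes became 8, 7, 2 and 1 in these settings, and 1 within 500 bp. Setting aside 1 replicate at a time meant requiring the optimal summit to lie in the top lists of the other 2. The optimal set itself was not called again. This gave 8 members without replicate 1 (21.6% of protein-coding genes), 9 without replicate 2 (22%) and 8 without replicate 3 (21.9%). Of these 6 to 7 were cytoplasmic and 2 mitochondrial. Adding alpha-PheRS and beta-PheRS gave 10 of 35. Leaving out the 5 cytoplasmic genes with no mitochondrial counterpart, added after seeing the data, gave 8 of 28 members. The cytoplasmic share was the higher in each of these settings. The strongest signal at AspRS was 443.5 within 5 kb against 235.8, and at HisRS 232.5 against 225.8. The other 93 of 95 signal values of single genes were equal to those in the report. They were read from the same deposited peaks, so their equality is no check on the values. No paired analysis was possible because there is 1 group. Unknown depth limits what can be said of genes without a region.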
